A study of Mus musculus with 15 samples.

Results

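The genes described here encode the machinery of DNA replication and its S phase supply lines in 21EM15, a mouse lens epithelial cell line. They were chosen by name: 48 genes were listed, and the 45 found in both expression tables of the study were kept, out of 11041 genes that the tables share. They comprise 12 genes of helicase loading and activation, 21 of polymerases, clamp and fork, 5 of nucleotide supply, 4 of histone supply and chromatin copying, and 3 of E2F and cyclin E. Of the other listed genes, Orc1 and Ccne1 were in the culture table alone and Cdt1 was in neither. RNA was profiled by 3′ end sequencing in 4 samples of flat culture on plastic (2D), 4 of spheroids grown without attachment (3D), 4 of the internal region (Internal) and 3 of the external region (External) of spheroids, both isolated by laser capture microdissection. All groups are the same line, labelled WT, and the labels name no compound. Each sample was a dish of cells or a pool of spheroids. Nothing in the labels says that samples came from separate cultures, so p-values measure the spread between these samples, which may be technical. External samples had been retained by the authors after a principal component analysis, so the separation of the 2 regions is not an independent observation.

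Before S phase, the origin recognition complex, Cdc6 and Cdt1 load the MCM2 to MCM7 ring on DNA, and Cdc45 and the GINS complex turn the ring into an active helicase. Polymerases alpha, delta and epsilon then copy both strands with the sliding clamp PCNA and its loader, RFC, while ribonucleotide reductase, thymidylate synthase and thymidine kinase supply nucleotides. Cyclin E and E2F factors switch many of these genes on as cells leave G1. In the lens, dividing cells lie in the epithelium and leave the cell cycle before they become fiber cells.

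Values are log2 CPM, where CPM is the count of a gene's reads scaled to a common library size. Recovered reads on the listed genes came to between 7305053 and 9362587 per sample in the cultures and between 4044230 and 11702504 in the regions. Reads on genes that the authors removed are not in these sums. Taken as the floor of detection, 3 reads equalled 0.312 to 0.409 CPM in the cultures and 0.248 to 0.802 CPM in the regions. These floors cover counting error only. Of the lens markers, Pax6 averaged 5.65 in 2D, 6.34 in 3D, 7.65 in Internal and 7.0 in External samples, and Cryab lay at 8.24 or above in every group mean. Cryaa, Foxe3 and Cdh1 were listed in neither table. Prox1 stood at -1.49 in 2D replicate 3 and between 5.12 and 5.49 in the other 2D samples. The proliferation marker Mki67 fell by 1.34 in 3D against 2D and by 4.08 in Internal against External. In bulk RNA, fewer dividing cells and less RNA per dividing cell cannot be told apart.

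E2F factors are known to act at promoters of replication genes, and whether they act here was not tested. The stretches before the start of 4 member genes are shown as examples and do not represent the set. Each is the 250 bases before the RefSeq start on the gene's own strand, from the GRCm38.p6 build, 5′ to 3′. Capitals mark matches to an E2F-type motif, and Rrm2 and Slbp have no match there. Mcm5 and Mcm6 hold 2 and 3 matches, while 23 members with a promoter hold none in the wider window searched.
Mcm5 (chr8:75109259-75109508, plus strand): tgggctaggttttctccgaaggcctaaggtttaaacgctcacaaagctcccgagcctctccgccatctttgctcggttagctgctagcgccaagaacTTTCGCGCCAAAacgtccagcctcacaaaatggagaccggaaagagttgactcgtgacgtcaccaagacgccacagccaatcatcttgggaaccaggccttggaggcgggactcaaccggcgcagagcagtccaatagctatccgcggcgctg
Mcm6 (chr1:128359706-128359955, minus strand): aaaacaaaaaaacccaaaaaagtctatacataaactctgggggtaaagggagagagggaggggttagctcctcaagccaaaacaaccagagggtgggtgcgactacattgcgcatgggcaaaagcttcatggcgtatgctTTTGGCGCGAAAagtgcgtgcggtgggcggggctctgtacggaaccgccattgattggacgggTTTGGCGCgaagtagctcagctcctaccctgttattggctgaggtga
Rrm2 (chr12:24708004-24708253, plus strand): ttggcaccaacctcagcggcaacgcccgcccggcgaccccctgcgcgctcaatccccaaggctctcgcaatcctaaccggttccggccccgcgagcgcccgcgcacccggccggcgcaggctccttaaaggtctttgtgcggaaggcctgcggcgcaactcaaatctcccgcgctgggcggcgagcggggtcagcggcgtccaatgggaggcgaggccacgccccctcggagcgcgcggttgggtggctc
Slbp (chr5:33652575-33652824, minus strand): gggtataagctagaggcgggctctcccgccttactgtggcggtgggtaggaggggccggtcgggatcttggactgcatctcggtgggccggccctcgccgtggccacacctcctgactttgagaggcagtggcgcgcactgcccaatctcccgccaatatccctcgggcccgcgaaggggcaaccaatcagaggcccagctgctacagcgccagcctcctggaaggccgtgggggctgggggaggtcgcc

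The motif was searched as TTTCCCGC, TTTCGCGC, TTTGCCGC or TTTGGCGC on both strands, from 250 bases before the start to 50 after it. The strings can overlap, as in Mcm5, where 1 run of capitals holds 2 matches, and in Mcm6, where the first run also holds 2. At least 1 match was found in 14 of the 37 members that have a promoter in the RefSeq table, or 37.8%. The share was 2.6% over all 27025 genes of that table and 4.87% over the 9315 of them in the culture table. It was 24.6% in 65 other replication genes and 3.85% in 26 G2/M genes. Members with a match were Cdc6, Clspn, E2f2, Lig1, Mcm3, Mcm5, Mcm6, Mcm7, Pola1, Pold1, Pold3, Pole2, Rfc3 and Uhrf1. A match is a string in a window and does not show that a factor binds there. The median log2 fold change of members with a match was -0.891 in 3D against 2D, beside -0.972 without, and -2.652 in Internal against External, beside -1.907 without.

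Part of the replication set was lower in 3D spheroids than in 2D culture. The comparison asks what 3D growth changes relative to 2D. All 45 members had a lower mean in 3D, and 13 of them, or 28.9%, were called lower (limma adjusted p under 0.01 and a fall of more than 1 on the log2 scale), beside 1.51% of all 11677 genes tested. No member was called higher, beside 2.92% of all genes, and none was higher at an unadjusted p under 0.05. The median log2 fold change of the members was -0.95, a 1.93-fold fall, and that of all genes was -0.03. Without the fold threshold 23 members passed as lower, beside 2.7% of all genes. In 34 members every 3D sample lay under every 2D sample, which was true of 12% of all genes.

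**Figure D1:**
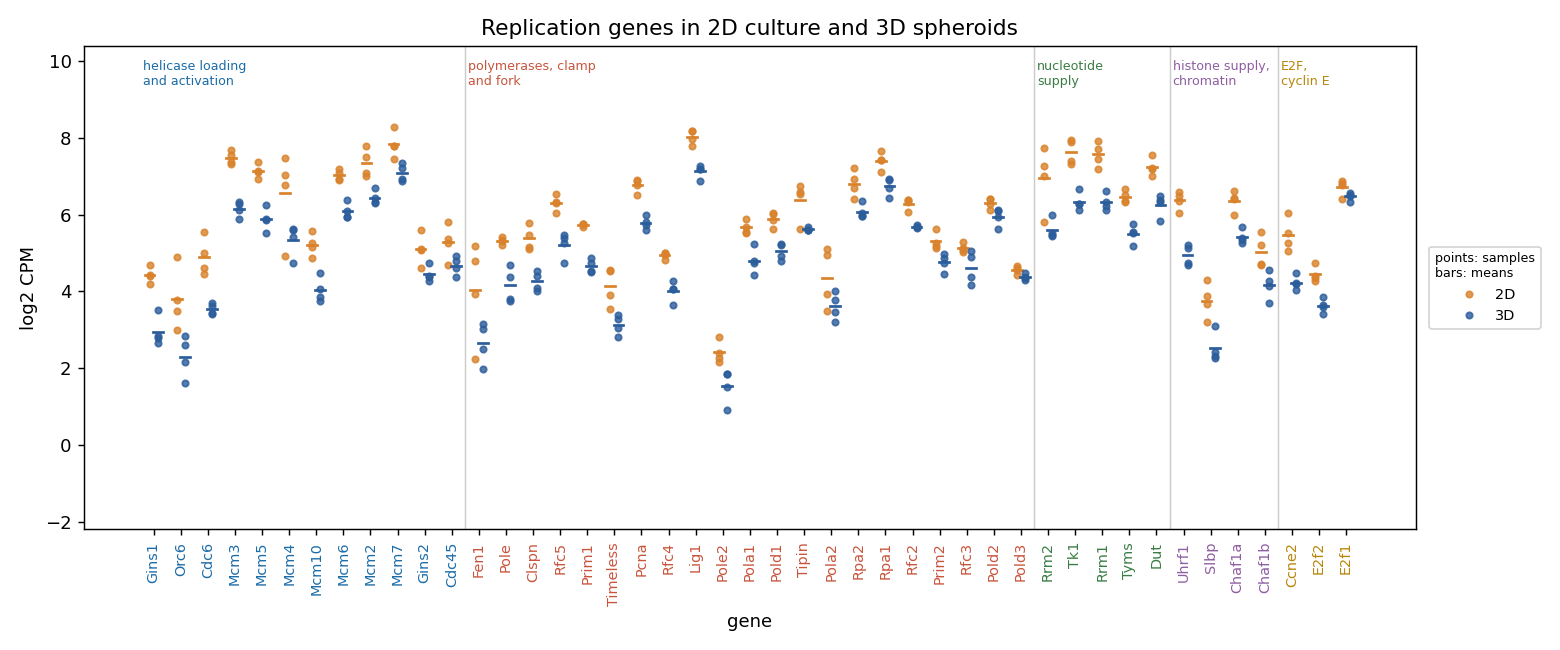
Log2 CPM (vertical axis) of each of the 45 members (horizontal axis, grouped by function) in the 4 samples of 2D culture and the 4 of 3D spheroids; points are samples and short bars are means. All 45 means are lower in 3D, and the wide 2D spread of Fen1, Mcm4 and Rrm2 comes with 1 low sample.

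The helicase genes included 5 called lower of 12: Mcm3, Mcm5, Mcm10, Cdc6 and Gins1. Mcm3, a subunit of the MCM ring, measured 7.37, 7.31, 7.55 and 7.69 log2 CPM in 2D and 6.29, 6.32, 5.88 and 6.11 in 3D. The groups did not overlap, and the log2 fold change was -1.33 ± 0.14 (SE, limma adjusted p = 0.000685). Mcm5, a ring subunit as well, measured 6.94, 7.13, 7.11 and 7.38 in 2D and 5.87, 6.24, 5.51 and 5.88 in 3D. It fell by 1.27 ± 0.17 (SE, limma adjusted p = 0.00136), again without overlap.

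Mcm2 measured 7.10, 7.01, 7.51 and 7.79 log2 CPM in 2D and 6.32, 6.44, 6.30 and 6.70 in 3D. Mcm6 measured 6.92, 6.91, 7.08 and 7.18 in 2D and 5.93, 6.39, 5.94 and 6.09 in 3D. Both lay under 2D in every 3D sample and passed the adjusted p (0.00819 and 0.00239, limma), but their log2 fold changes of -0.91 and -0.93 stayed inside the fold threshold. Mcm7, whose introns carry the microRNA genes Mir106b, Mir93 and Mir25, measured 7.46, 7.80, 7.79 and 8.28 in 2D and 6.93, 7.34, 6.87 and 7.22 in 3D. Its log2 fold change was -0.74 ± 0.18 (SE, limma adjusted p = 0.0188), which was not called.

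Mcm4 was the ring gene whose groups overlapped. It measured 7.03, 4.92, 6.78 and 7.49 log2 CPM in 2D and 5.64, 4.74, 5.41 and 5.59 in 3D. Replicate 2 was the lowest sample in both groups, with 220 reads in 2D and 214 in 3D, and the groups overlapped through it. The log2 fold change was -1.21 ± 0.47 (SE, limma adjusted p = 0.0953), and -1.55 with an adjusted p of 0.00144 without both samples numbered 2.

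Orc6, a subunit of the origin recognition complex, had, with Gins1, the largest fitted change of the helicase genes, and the order of the pair turned with a prior count of 5. It measured 4.91, 3.00, 3.49 and 3.78 log2 CPM in 2D and 2.83, 1.62, 2.60 and 2.15 in 3D. The groups did not overlap, but 2D spread widely, and the log2 fold change of -1.49 ± 0.41 (SE) was not called (limma adjusted p = 0.0301). Cdc6, the MCM loader, fell by 1.37 ± 0.24 (SE, limma adjusted p = 0.00465), and Gins1, of the GINS complex, fell by 1.49 ± 0.24 (SE, limma adjusted p = 0.00287). Orc1, outside the 45 because it is in the culture table alone, fell by 1.70 (limma adjusted p = 0.00707). Its call was lost in 7 of the 8 fits that left out 1 sample.

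Among the polymerase, clamp and fork genes, 4 of 21 were called lower: the clamp loader subunit Rfc5, the primase subunit Prim1, the polymerase epsilon catalytic subunit Pole and the checkpoint mediator Clspn. Their log2 fold changes were -1.08, -1.08, -1.16 and -1.12. Pcna, the sliding clamp, had a log2 fold change of -0.99 ± 0.14 (SE, limma adjusted p = 0.00183), just inside the fold threshold. The largest change in the group was in Fen1, the flap endonuclease, at 5.19, 2.25, 3.92 and 4.78 log2 CPM in 2D and 3.14, 1.98, 3.01 and 2.51 in 3D. Replicate 2 was again the lowest in both groups, the groups overlapped, and the log2 fold change of -1.38 ± 0.56 (SE) was not called (limma adjusted p = 0.111). Without both samples numbered 2 it was -1.75 (limma adjusted p = 0.00806). The smallest change was in Pold3, an accessory subunit of polymerase delta, at -0.19 (limma adjusted p = 0.403).

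All 5 nucleotide supply genes had lower 3D means, and 2 were called: the ribonucleotide reductase subunit Rrm1 at -1.24 ± 0.18 (SE, limma adjusted p = 0.00184) and thymidine kinase Tk1 at -1.30 ± 0.18 (SE, limma adjusted p = 0.00165). Tyms and Dut passed the adjusted p with changes of -0.97 each. Rrm2, the other reductase subunit, measured 7.28, 5.82, 7.02 and 7.74 log2 CPM in 2D and 6.0, 5.47, 5.51 and 5.45 in 3D. Its 2D replicate 2 lay under the highest 3D sample, and the log2 fold change was -1.36 ± 0.34 (SE, limma adjusted p = 0.0204). Without both samples numbered 2 it was -1.69 (limma adjusted p = 0.00168).

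Uhrf1, which brings DNA methylation to newly copied DNA, was the called gene of the 4 in histone supply and chromatin copying. It measured 6.05, 6.36, 6.50 and 6.60 log2 CPM in 2D and 5.13, 5.21, 4.68 and 4.74 in 3D, and it fell by 1.44 ± 0.18 (SE, limma adjusted p = 0.00107). Slbp, the histone mRNA binding protein, measured 3.19, 3.66, 3.87 and 4.30 in 2D and 2.42, 3.11, 2.26 and 2.31 in 3D, a log2 fold change of -1.23 ± 0.30 (SE, limma adjusted p = 0.0174).

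Cyclin E2 (Ccne2) was called lower, and E2f1 and E2f2 were not. Ccne2 measured 5.06, 5.27, 5.51 and 6.05 log2 CPM in 2D and 4.21, 4.47, 4.2 and 4.04 in 3D, without overlap, and fell by 1.24 ± 0.22 (SE, limma adjusted p = 0.00466). Ccne1, in the culture table alone, measured 4.69, 3.19, 5.16 and 5.52 in 2D and 3.81, 3.00, 2.88 and 3.41 in 3D, with a log2 fold change of -1.36 ± 0.45 (SE, limma adjusted p = 0.0566). Here too 2D replicate 2 overlapped 3D, and without both samples numbered 2 the log2 fold change of Ccne1 was -1.76 (limma adjusted p = 0.00434). E2f2, an activating E2F, measured 4.35, 4.74, 4.40 and 4.28 in 2D and 3.42, 3.86, 3.65 and 3.60 in 3D, at -0.81 ± 0.19 (SE, limma adjusted p = 0.0151). E2f1 measured 6.40, 6.82, 6.77 and 6.88 in 2D and 6.34, 6.57, 6.49 and 6.51 in 3D, groups that overlapped, at -0.24 ± 0.14 (SE, limma adjusted p = 0.243).

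The number of genes called lower in 3D against 2D depended on single samples, among the members and over all genes. Without 2D replicate 2 it was 20 members and 287 of all genes (2.46%), and without both samples numbered 2 it was 23 and 276 (2.36%). It was 5 and 49 (0.42%) without 3D replicate 3, 6 and 80 (0.685%) without 3D replicate 1, 7 and 62 (0.531%) without 3D replicate 4, and 8 and 93 (0.796%) without 2D replicate 3. Without 3D replicate 2 the counts went opposite ways, to 18 members and 152 of all genes (1.3%), and without 2D replicate 1 to 14 and 161 (1.38%). With no variance trend it was 8 and 123 (1.05%). In 2D replicate 2, 4 of the 45 members, or 8.89%, lay more than 1 on the log2 scale under the median of the other 2D samples, beside 9.09% of all genes, so low values there were no more frequent among the members. Mcm3, Mcm5, Prim1, Tk1 and Uhrf1 kept their calls whichever of the 8 samples was left out, and the other 8 called members lost theirs in 2 to 6 of the 8 fits. The median log2 fold change of the members stayed between -1.01 and -0.88 when single samples were left out.

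Within spheroids, 30 of the 45 members were called lower in the internal region. The comparison asks how the core differs from the outer layer. Of the 45 members, 44 had a lower mean in Internal, and the 30 called make up 66.7%, beside 4.35% of all 11299 genes tested. No member was called higher, beside 3.27% of all genes, and none was higher at an unadjusted p under 0.05. The same 30 passed without the fold threshold, beside 7.88% of all genes. In 35 members every Internal sample lay under every External sample, which held for 15.4% of all genes. The median log2 fold change of the members was -1.95, a 3.86-fold fall, and that of all genes was 0.04.

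**Figure D2:**
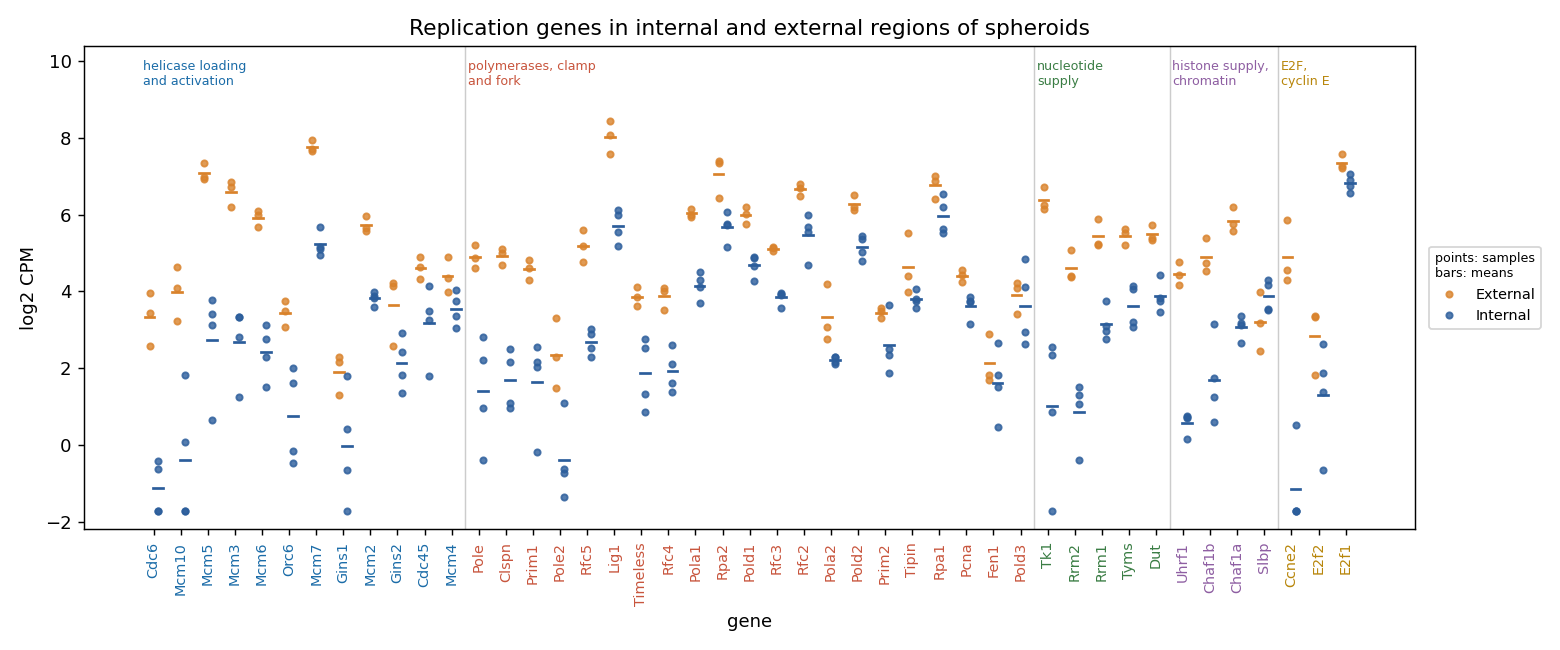
Log2 CPM (vertical axis) of each of the 45 members (horizontal axis, grouped by function) in the 4 Internal and 3 External samples; points are samples and short bars are means. Points at -1.72 are samples with 0 reads, and Slbp is the gene whose Internal mean is the higher.

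In the helicase group 8 of 12 were called lower, and 5 of the 6 ring subunits were among them. Mcm5 measured 6.92, 6.99 and 7.34 log2 CPM in External and 3.77, 0.65, 3.13 and 3.41 in Internal, and fell by 4.34 ± 0.47 (SE, limma adjusted p = 4.79e-07). Mcm3 measured 6.20, 6.86 and 6.72 in External and 2.82, 3.34, 3.34 and 1.24 in Internal, and fell by 3.91 ± 0.40 (SE, limma adjusted p = 1.93e-07). Mcm6 measured 5.67, 5.98 and 6.09 in External and 1.51, 2.30, 2.75 and 3.13 in Internal, and fell by 3.49 ± 0.37 (SE, limma adjusted p = 3.79e-07). In these 3 genes the regions did not overlap. Internal replicate 2, with 11 reads, was the lowest sample for Mcm5, whose log2 fold change was -3.65 without it.

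Mcm7 measured 7.70, 7.67 and 7.94 log2 CPM in External and 4.96, 5.17, 5.10 and 5.67 in Internal, a fall of 2.55 ± 0.19 (SE, limma adjusted p = 1.81e-09). Mcm2 measured 5.96, 5.66 and 5.57 in External and 3.59, 3.99, 3.84 and 3.87 in Internal, a fall of 1.91 ± 0.26 (SE, limma adjusted p = 1.04e-05). Mcm4 measured 4.90, 4.36 and 3.98 in External and 3.37, 3.74, 4.03 and 3.04 in Internal. Its regions overlapped, and its log2 fold change of -0.87 ± 0.35 (SE) was not called (limma adjusted p = 0.0825).

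Cdc6 was at or under the floor in the core, so its fitted change cannot be ranked against those of Mcm5 and Mcm10. It had 92, 49 and 21 reads in External and 3, 3, 0 and 0 in Internal, where the floor is 3 reads per library. Its External mean of 10.5 CPM was 24.2-fold the mean Internal floor of 0.433 CPM, a ratio of means that leaves out the External spread. The fitted log2 fold change of -4.44 (limma adjusted p = 0.000513) ran from -5.69 to -3.49 with prior counts of 0.5 and 5. The call was lost without External replicate 1 (limma adjusted p = 0.0107). The authors removed genes of low CPM, so Cdc6 may be listed only through its External reads. Its direction and p-value are then no independent support. Mcm10, a helicase activation factor, had 55, 113 and 63 reads in External and 5, 0, 14 and 0 in Internal. It fell by 4.38 (limma adjusted p = 0.000399), and its call was lost without External replicate 2 (adjusted p = 0.0124). The fitted value ran from -5.47 to -3.59 with prior counts of 0.5 and 5, and it was -5.11 without Internal replicate 3. Cdc45, Gins1 and Gins2, which build the active helicase, were not called, at -1.45, -1.95 and -1.52. Without Internal replicate 3, Cdc45 was called lower, at -1.78 (limma adjusted p = 0.00449), and Gins1 was at -2.56 without Internal replicate 1.

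Of the polymerase, clamp and fork genes 13 of 21 were called lower. Pole changed most, at 5.21, 4.87 and 4.62 log2 CPM in External and 0.97, -0.39, 2.22 and 2.82 in Internal, and fell by 3.5 ± 0.59 (SE, limma adjusted p = 0.000112), or by 2.90 without Internal replicate 2. Lig1, the ligase that joins Okazaki fragments, measured 5.19, 6.0, 5.56 and 6.11 in Internal, beside 7.59, 8.07 and 8.44 in External, and fell by 2.32 ± 0.22 (SE, limma adjusted p = 5.61e-08). Clspn, Prim1 and Rfc5 fell by 3.24, 2.96 and 2.50, and Prim1 fell by 2.35 without Internal replicate 2. Pcna was not called, at -0.79 ± 0.33 (SE, limma adjusted p = 0.0876), although each Internal sample lay under each External one. Pola2, Prim2, Pold3, Pole2, Fen1, Rpa1 and Tipin were not called either, with log2 fold changes from -2.76 in Pole2 to -0.28 in Pold3. Pole2 had at most 44 reads in any of these samples.

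All 5 nucleotide supply genes were called lower. Tk1 had 432, 350 and 394 reads in External and 10, 0, 24 and 57 in Internal, or 6.16, 6.26 and 6.72 log2 CPM against 0.85, -1.72, 2.54 and 2.33. It fell by 5.38 ± 0.67 (SE, limma adjusted p = 2.62e-06), and by 4.48 without Internal replicate 2, the sample with 0 reads. The ratio of the mean CPM of the regions was 28.7. Rrm2 fell by 3.75, Rrm1 by 2.31, Tyms by 1.84 and Dut by 1.62, and none of the 5 lost its call when 1 sample was left out.

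In histone supply and chromatin copying, Uhrf1 measured 4.42, 4.16 and 4.77 log2 CPM in External and 0.72, 0.15, 0.75 and 0.70 in Internal, a fall of 3.87 ± 0.54 (SE, limma adjusted p = 1.18e-05). Chaf1a and Chaf1b, subunits of the chromatin assembly factor that loads histones behind the fork, fell by 2.76 and 3.20. Slbp went against its group. It measured 2.44, 3.17 and 3.98 in External and 4.17, 3.52, 3.55 and 4.31 in Internal; the regions overlapped, and the log2 fold change of 0.69 ± 0.41 (SE) was not called (limma adjusted p = 0.241).

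Ccne2 had the largest fitted fall of the members, also with prior counts of 0.5 and 5, but Cdc6 cannot be ranked against it. Ccne2 had 140, 89 and 217 reads in External and 0, 0, 5 and 0 in Internal. Like Cdc6, it may be listed only through its External reads, so its direction and p-value are no independent support. The fitted log2 fold change was -6.06 (limma adjusted p = 3.59e-06), and it ran from -7.61 to -5.00 with prior counts of 0.5 and 5. All 5 Internal reads were in replicate 3. The mean was 33.5 CPM in External and 0.286 CPM in Internal, a ratio of 117 that rests on those 5 reads. E2f1 measured 7.23, 7.57 and 7.27 log2 CPM in External and 7.06, 6.76, 6.57 and 6.90 in Internal. Every Internal sample was lower, but the log2 fold change of -0.54 ± 0.16 (SE) was not called (limma adjusted p = 0.0208). E2f2 measured 3.37, 3.34 and 1.81 in External and 2.62, 1.87, 1.37 and -0.66 in Internal, with overlap, at -1.54 ± 0.72 (SE, limma adjusted p = 0.136), and at -0.89 without Internal replicate 4.

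Of the 30 calls in Internal against External, 22 held whichever of the 7 samples was left out, and those of Cdc6, Mcm10, Orc6, Rfc2, Rfc3, Rfc4, Pold2 and Timeless were lost in 1 to 5 of the 7 fits. Without both samples numbered 2, 21 members were called, and 334 of all genes (2.96%); Pold1 and Rpa2, which are among the 22, were not called there (limma adjusted p = 0.0117 and 0.0123). With no variance trend 15 members were called, and the calls over all genes went from 491 to 207 (1.83%).

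Of the members, 12 were called lower in both comparisons. That is 92.3% of the 13 called in 3D against 2D and 40% of the 30 called in Internal against External. Of all 11041 shared genes, 111 were called lower in both, or 64.9% of the 171 called in the cultures and 22.6% of the 491 called in the regions. Gins1 was called in the cultures alone, 18 members were called in the regions alone and 14 in neither. The fall was larger in the regions for 41 of the 45, although the tables were normalized separately and the difference in size was not tested. Across the 45 members the log2 fold changes of the comparisons had a Pearson correlation of 0.56 and a Spearman correlation of 0.581; these are a description across genes, which share the samples of each table and are not independent.

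**Figure D3:**
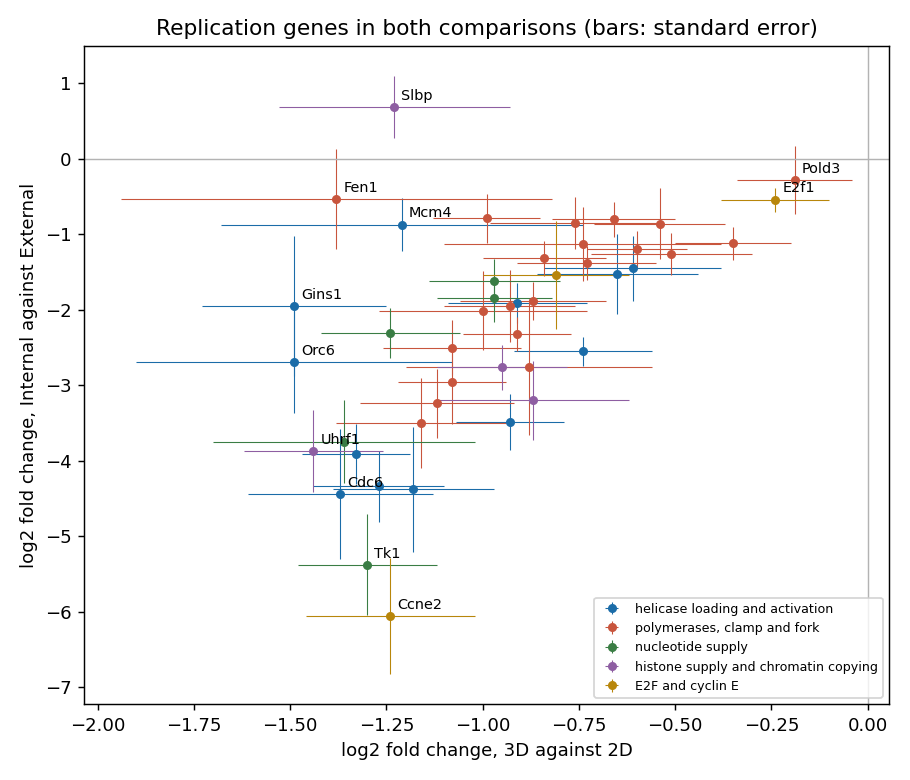
Log2 fold change of each of the 45 members in 3D against 2D (horizontal axis) and in Internal against External (vertical axis), coloured by function; bars are standard errors. Ccne2, whose size of change is uncertain, and Tk1 lie lowest, at fitted values of -6.06 and -5.38 on the vertical axis. Slbp alone lies above 0.

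Summed over the members and scaled as CPM to the reads of the library, the members held 3255 to 4665 CPM in 2D and 1695 to 2069 CPM in 3D. They held 2155 to 2303 CPM in External and 663.6 to 738.2 CPM in Internal. The median member stood at 5.62 to 6.05 log2 CPM in 2D, 4.75 to 5.21 in 3D, 4.64 to 5.05 in External and 2.82 to 2.97 in Internal, so no sample of 1 group of either pair reached the other. The median over all genes of a table stayed between 4.59 and 4.82 in all samples.

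Other genes of the replication pathway, listed for comparison, were lower in part. Of the 75 such genes listed in 2D and 3D samples, 12, or 16%, were called lower and none higher (2 at an unadjusted p under 0.05 in limma), with a median log2 fold change of -0.67. The largest changes were in Mtbp, an origin firing factor, at -2.04, the repressive E2F gene E2f8 at -1.90, the nuclease gene Dna2 at -1.76, Atad5, which unloads PCNA, at -1.54, and Tonsl at -1.54. Pclaf, a PCNA binding protein, fell by 1.26, the histone chaperone Asf1b by 1.21, Topbp1 by 1.16, Dbf4 by 1.06 and Mms22l by 1.05. Of these 10 genes, Mtbp and Pclaf kept their calls whichever of the 8 samples was left out, and the others lost theirs in 1 to 7 of the 8 fits. The count of 12 fell to 3 without 3D replicate 3 and rose to 23 without 2D replicate 2.

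Of the 72 listed in the regions, 16, or 22.2%, were called lower and none higher (2 at an unadjusted p under 0.05 in limma), with a median of -0.60. E2f7, another repressive E2F gene, had 60, 24 and 28 reads in External and none in any Internal sample. Its External mean of 7.53 CPM was 17.4-fold the mean Internal floor of 0.433 CPM, a ratio that leaves out the External spread. Like Cdc6, E2f7 may be listed only through its External reads, so its direction is no independent support. Pclaf fell by 4.09, Chtf18 by 4.02, E2f8 by 3.70, Asf1b by 3.55, Top2a by 3.26, Atad5 by 2.89, Wdhd1 by 2.26, Dbf4 by 2.13 and the maintenance DNA methyltransferase Dnmt1 by 2.03. Pclaf, Asf1b, Top2a and Dnmt1 kept their calls whichever of the 7 samples was left out. The call was lost in 6 of the 7 fits for Wdhd1, in 2 for E2f7, Chtf18, E2f8 and Atad5, and in 1 for Dbf4, and the change of Chtf18 was -4.64 without External replicate 1. The count was 8 without External replicate 3 and 10 without External replicate 2.

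The G2/M list, mitotic genes such as Cdk1 and Plk1, had larger shares called lower than the members. In 3D against 2D, 21 of 30 (70%) were called lower, beside 28.9% of the members and 1.51% of all genes. In Internal against External it was 27 of 30 (90%), beside 66.7% and 4.35%. The medians were -1.28 and -3.76, beside -0.95 and -1.95 for the members. The G2/M genes mark dividing cells later in the cycle, and their part in the values of the replication genes was not tested. The count in the cultures was 12 without 3D replicate 3 and 13 without 3D replicate 4.

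**Figure D4:**
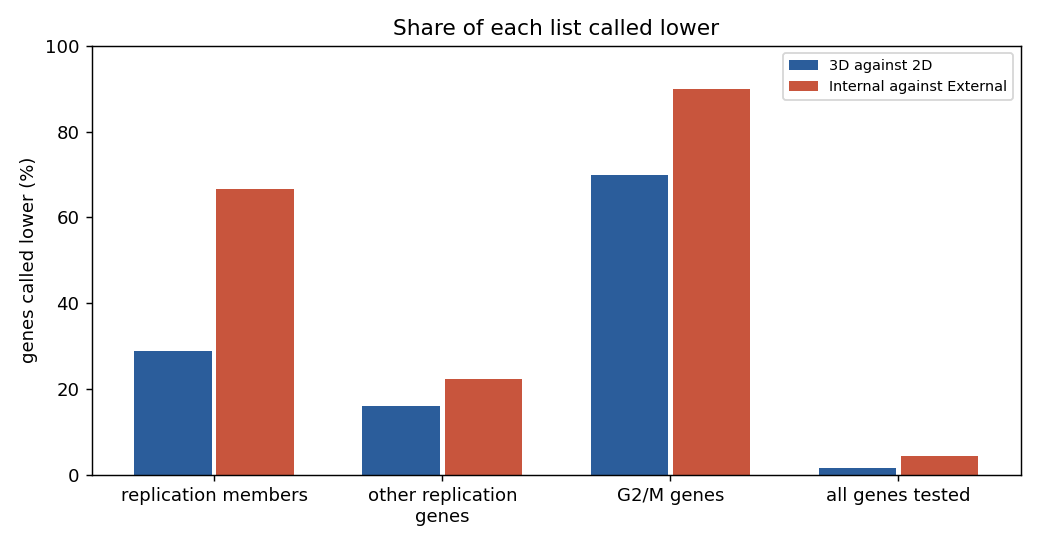
Percentage of genes called lower (vertical axis, from 0) among the 45 replication members, the other replication genes, the G2/M genes and all genes tested (horizontal axis), for both comparisons. The members reach 28.9% and 66.7%, beside 70% and 90% of the G2/M genes and 1.51% and 4.35% of all genes.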

How the data were processed

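RNA of 15 samples was sequenced from the 3′ end. RNA of 2D and 3D samples was extracted with a Nucleospin kit and that of the regions with PicoPure, so the 2 tables differ in extraction. According to the paper's methods and the submitters' processing notes, the authors kept sense reads, aligned them with STAR 2.7.8a to GRCm38.p6, kept uniquely mapped reads, counted them with featureCounts 1.6.0 and removed genes of low CPM; the annotation release is not given in the sources used here. The authors deposited log2 CPM per sample, normalized separately in a table of 11677 and one of 11299 genes. Their columns of fold changes, p-values and group means were not used. Whole reads were recovered from the spacing of the log2 values, for 100.0% of values within 0.05 reads.

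Groups were compared within a table with limma 3.58.1 in R 4.3.3 (variance trend, two-sided, Benjamini-Hochberg adjustment over all genes of the table); the procedure was tested on simulated data. Genes were called where the adjusted p was below 0.01 and the mean difference exceeded 1 in either direction. Differences were taken as 3D less 2D and as Internal less External, on the deposited log2 scale, whose prior count understates changes of low genes. The members, lists and tests were chosen with earlier results of these data known. Values in every sample are given for the member with the largest change in each function group and comparison, MCM2 to MCM7, the cyclin E and E2F genes, and members against the direction of their group; at most 10 other replication genes are named per comparison. A few other values in single samples were given after seeing the data. Gene positions are from GENCODE vM21 and promoters from RefSeq. Of the members, 21 share stretches of 50 bases in the last 300 of the transcript with other genes, so their counts of uniquely mapped reads may be low. Alternatives were other priors, filters, scalings, thresholds, variance models, a replicate block and leaving out samples.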

Additional observations from a re-analysis of the deposited data

Results flagged for a closer look

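In the groups of 4 samples, 6 of 135 combinations of a member and a group, or 4.44%, had 1 sample far from the other 3 (Dixon's ratio above 0.829), and chance gives about 1 in 20. Rfc2 stood at 5.74 log2 CPM in 3D replicate 3, beside 5.66 to 5.67 in the others, and at 6.06 in 2D replicate 1, beside 6.33 to 6.39. Rrm2 stood at 6.0 in 3D replicate 1, beside 5.45 to 5.51. Prim1 stood at 5.67 in 2D replicate 3, beside 5.76 in the others. Uhrf1 stood at 0.15 in Internal replicate 2, beside 0.70 to 0.75. Ccne2 stood at 0.53 in Internal replicate 3, where it had 5 reads, beside -1.72 in the other 3, which had 0 reads.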

How the results depend on the processing

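Over the alternatives run, the median log2 fold change of the members ranged from -1.06 to -0.88 in 3D against 2D and from -2.02 to -1.85 in Internal against External. Of members called in 3D against 2D, 13 became 8 with no variance trend, 23 with no fold threshold and 23 without both samples numbered 2, while the 176 of all genes became 123, 315 and 276; leaving out 1 sample gave 5 to 20 members and 49 to 287 of all genes. Other replication genes called there, 12, became 7 with no variance trend, 23 at an adjusted p under 0.05, 19 with no fold threshold and 21 without both samples numbered 2; leaving out 1 sample gave 3 to 23. G2/M genes called there ranged from 12 to 26 when 1 sample was left out. In Internal against External, with no variance trend the 30 members called became 15 (491 and 207 of all genes), the 16 other replication genes 6 and the 27 G2/M genes 17; the 16 also became 10 with the replicate block and 9 without both samples numbered 2, and 8 to 16 when 1 sample was left out. Pold3 turned to 0.04 without both samples numbered 2 and to a range of -0.69 to 0.05 when 1 sample was left out, the highest without Internal replicate 1. The share of members with an E2F-type motif was 29.7% for TTTCCCGC and TTTGGCGC alone, beside 1.8% of all genes, and 27% in the narrower window, beside 1.45%. The causes were not tested. The alternatives for the G2/M genes and the ratio to the floor for Cdc6 were chosen after seeing the data.

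Correlations of same-numbered samples were 0.227, 0.503, 0.066 and 0.005 in the cultures and -0.044, -0.065 and -0.063 in the regions, so the numbers were not taken as pairs; samples 1 and 2 of the cultures correlated best with their own number and the others did not. With the replicate block, the calls over all genes went from 176 to 213 (1.82%) in 3D against 2D and from 491 to 399 (3.53%) in Internal against External. With it 16 members were called in 3D against 2D, with Mcm4, Orc6 and Rrm2 added (adjusted p = 0.00968, 0.00645 and 0.0077, limma), and 27 in Internal against External, with Orc6, Rfc3 and Rfc4 lost (0.0377, 0.0104 and 0.0305); no other member's call changed. At this depth, Cdc6 lies at or under the floor in every Internal sample and Ccne2 and Pole2 in 3 of the 4, so their sizes of change are uncertain.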
